A study of Mus musculus with 24 samples.

Results

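The comparison described here set the wild-type LK GFPneg fraction, which the labels call MEP, against the wild-type LSK GFPneg-lo fraction, which they call HSC. Its members were chosen by sample title, which gave 6 of the 24 arrays of the series, 3 per fraction. Earlier results of these data were known when they were chosen. All 18193 genes with a named probe set entered the comparison. MEP stands for the megakaryocyte-erythroid progenitor, and HSC for the haematopoietic stem cell. Both fractions came from wild-type B-p-GFP-C mice, on a mixed background of C57BL/6 and C3H. This line carries a GFP transgene driven by regulatory elements of Ikaros, so that GFP brightness was used to split the progenitors. LK cells were sorted as GFP-negative, and LSK cells as negative to very low for GFP. The same 2 fractions were also profiled from Ikaros-null mice (KO, I74 line, C57BL/6 x 129SV) that carry the reporter too, and in each genotype the bright LSK GFPhi (labelled LMPP) and LK GFPhi (labelled GMP) fractions completed the set of 8 groups of 3. Neither the age of the mice nor the number of animals behind an array is given in the sources used here, and the reporter is the sort criterion, so a fraction is whatever fell in the gate. Per their titles the arrays are biological replicates. The p-values rest on a spread between replicate arrays pooled over all 8 groups, not on that of the 6 compared arrays alone.

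In the common scheme of blood formation, LSK cells (lineage-negative, Sca-1-positive, Kit-positive) hold the stem cells and multipotent progenitors, while LK cells (lineage-negative, Kit-positive, without Sca-1) hold committed myeloid progenitors, MEP among them. An MEP gives rise to red cells and to platelet-forming megakaryocytes. On the red cell path the factors GATA1 and KLF1 bind GATA and CACC-box motifs in genes of heme synthesis, iron uptake and the red cell membrane, and the cells come to depend on erythropoietin. Stem cells are marked instead by factors such as MECOM, HLF and MEIS1 and by surface proteins such as the endothelial protein C receptor PROCR.

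The promoters of 4 genes are printed first, because their genes belong to the erythroid set that rose together in the MEP fraction and each holds a GATA motif. They are those of the genes with the largest rise among the erythroid members with such a motif. Each run is the 250 bases before the gene's start, 5′ to 3′ on the gene's strand, from RefSeq on build GRCm38.p6, and capitals mark each match to AGATAA or TGATAA on either strand. Rhd encodes a Rh blood group protein of the red cell membrane (promoter at chr4:134864286-134864535, plus strand). Kel encodes the Kell blood group protein (chr6:41704326-41704575, minus strand), Klf1 the erythroid KLF1 factor (chr8:84901732-84901981, plus strand), and Cpox coproporphyrinogen oxidase of heme synthesis (chr16:58669958-58670207, plus strand).
Rhd: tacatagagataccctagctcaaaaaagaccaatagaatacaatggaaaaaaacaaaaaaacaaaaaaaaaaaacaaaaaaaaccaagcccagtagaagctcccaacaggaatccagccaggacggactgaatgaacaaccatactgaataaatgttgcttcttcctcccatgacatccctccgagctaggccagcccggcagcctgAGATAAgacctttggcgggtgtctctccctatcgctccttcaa
Kel: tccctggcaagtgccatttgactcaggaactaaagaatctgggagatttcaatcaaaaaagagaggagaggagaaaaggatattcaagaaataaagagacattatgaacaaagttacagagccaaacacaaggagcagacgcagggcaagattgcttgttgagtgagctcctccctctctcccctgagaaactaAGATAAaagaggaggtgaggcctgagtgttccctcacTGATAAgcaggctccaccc
Klf1: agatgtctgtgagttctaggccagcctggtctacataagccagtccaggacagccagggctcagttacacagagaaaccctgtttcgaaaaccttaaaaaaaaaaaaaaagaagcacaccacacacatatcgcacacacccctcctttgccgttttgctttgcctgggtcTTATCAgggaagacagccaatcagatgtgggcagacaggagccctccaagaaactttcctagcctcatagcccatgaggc
Cpox: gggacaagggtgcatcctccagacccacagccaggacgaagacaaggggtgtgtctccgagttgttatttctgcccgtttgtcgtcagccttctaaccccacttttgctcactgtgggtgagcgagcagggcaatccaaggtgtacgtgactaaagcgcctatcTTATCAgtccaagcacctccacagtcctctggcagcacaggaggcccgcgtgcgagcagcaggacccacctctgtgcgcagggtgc
Counted back from the start, the first base of the motif lay 43 bases away in Rhd, 80 in Klf1 and 86 in Cpox, and Kel held 2, at 56 and 19 bases. Among members of the red cell, heme synthesis and erythroid factor lists that rose (iron genes were not included), 22 of 25 genes matched a promoter in the RefSeq table, and 10 of their 24 promoters (41.7%) held the GATA motif in the 300-base window from 250 bases before to 50 after the start. The same motif was in 12.9% of all 18006 promoters of 14367 matched genes, in 11.1% of promoters of genes that rose and in 11.4% of those of genes that fell. The broader CACC-box pattern CCNCNCCC, searched on both strands, was in 70.8% of the erythroid promoters, in 62.8% of all promoters and in 70.0% of those of genes that fell. A match is a description of the letters and shows no binding.

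In the fit across all genes, 4934 of 18193 genes (27.1%) differed between the fractions, 2368 of them higher in the MEP fraction (13.0%) and 2566 lower (14.1%). Here and below a gene rose or fell in MEP when limma's moderated test gave a Benjamini-Hochberg adjusted p under 0.05, and differences are MEP minus HSC on the log2 scale of the deposited RMA values. Of the genes changed at least 2-fold, 766 rose (4.21%) and 1207 fell (6.63%), and of those changed at least 8-fold, 9 rose (0.0495%) and 119 fell (0.654%). The deposited values carry no detection call, so a fold against a group of low values depends on the level that RMA gives to dim probe sets. The median difference over all genes was 0.03. The median level of an array was 7.25 to 7.29 in the MEP arrays and 7.42 to 7.46 in the HSC arrays, and setting each array's median to the same value moved the median difference by 0.17 and turned the split of calls to 5647 higher and 2036 lower (73.5% higher, against 48.0% as deposited). A further quantile normalization gave 2826 higher and 2459 lower. With the replicate number as a block 3361 were higher and 3205 lower (51.2% higher). The count of genes that rose was 1565 without replicate 3 of the MEP fraction. The 3 arrays of a fraction correlated at 0.991 to 0.994 (MEP) and 0.987 to 0.993 (HSC) over all genes, and arrays of different fractions at 0.939 to 0.953. Of 2907 called genes with several probe sets, 856 had probe sets that differed in sign. Each gene is shown by its probe set of highest mean. With the mean of a gene's probe sets 608 rose and 872 fell at least 2-fold, so many differences below are smaller by that measure. Since whole populations were measured, fewer cells of a type and less RNA per cell cannot be told apart.

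**Figure D1:**
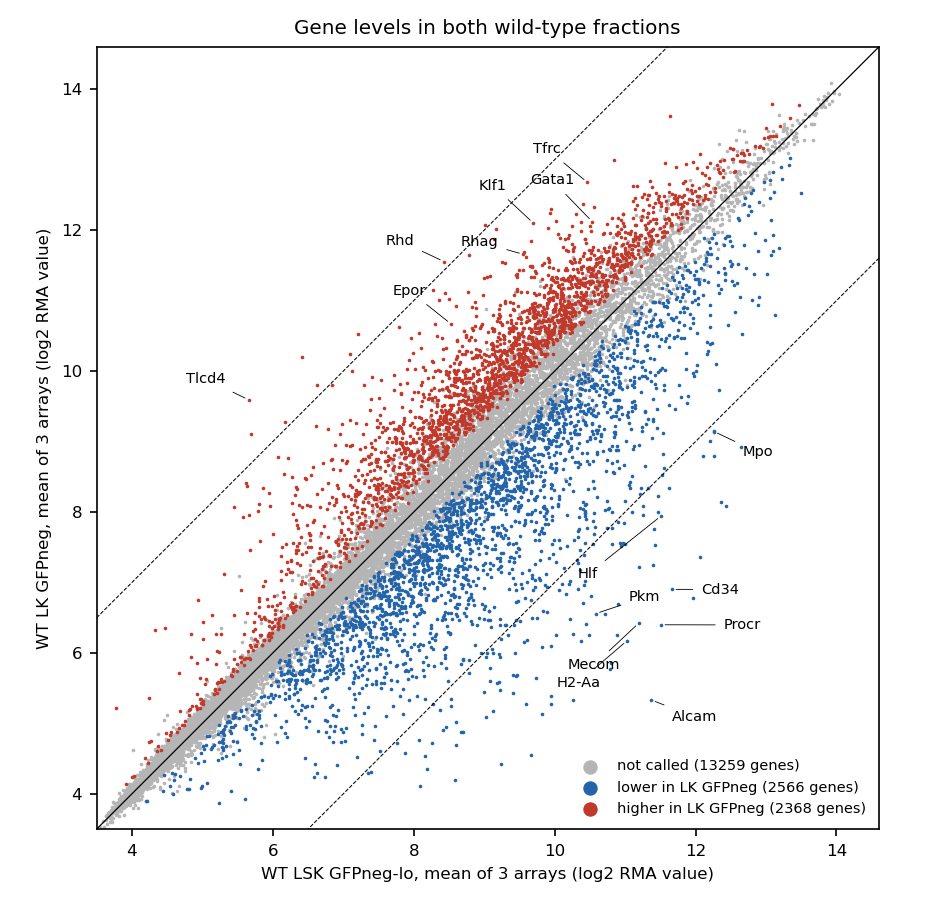
Mean log2 RMA value of each gene in the 3 LSK GFPneg-lo arrays (horizontal) and the 3 LK GFPneg arrays (vertical), with genes called higher in red, lower in blue and not called in grey. The solid line marks equal levels and the dashed lines an 8-fold difference, which 119 genes passed on the lower side and 9 on the upper side.

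The markers matched the MEP label in part. Of the 9 MEP markers, 6 rose (Gata1, Klf1, Epor, Gfi1b, Car1 and Tfrc), the megakaryocyte integrin Itga2b fell, and Pf4 (platelet factor 4) and Zfpm1 (the GATA1 partner FOG1) did not pass. All 7 measured stem cell markers fell, although Slamf1 lost its call without MEP replicate 1 (adjusted p = 0.0526), without MEP replicate 3 (0.0594) or without HSC replicate 2 (0.148). The Sca-1 gene Ly6a was not analysed here. The HSC fraction was not free of erythroid and megakaryocyte transcripts. Klf1 measured 9.36, 10.25 and 9.48 in its replicates 1 to 3, against 6.45 to 7.08 in LSK GFPhi and 6.63 to 6.93 in LK GFPhi. Pf4 measured 11.68, 12.42 and 11.43 there, against 7.44 to 8.63 in LSK GFPhi and 7.09 to 9.48 in LK GFPhi. Replicate 2 of the HSC fraction was the highest of its 3 arrays for Klf1, Gata1, Rhag, Pf4, Vwf and Selp, and each count was recomputed without this array.

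**Figure D2:**
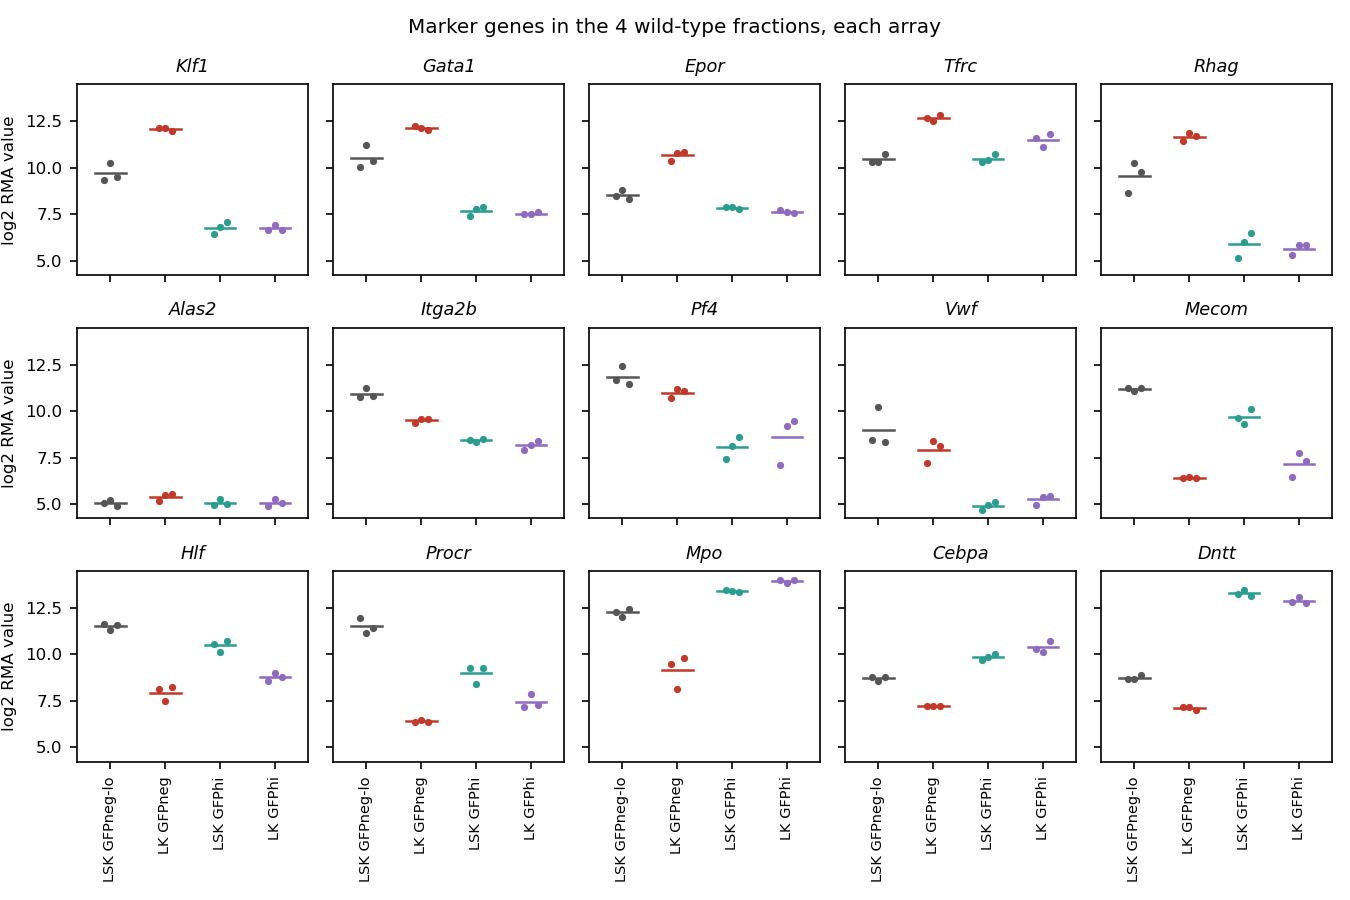
Log2 RMA value of 15 marker genes in each array (points) of the 4 wild-type fractions, with the mean of 3 arrays as a bar. Klf1, Gata1, Rhag, Pf4 and Vwf lie above both GFPhi fractions in the HSC fraction as well as in the MEP fraction, while Mecom, Hlf and Procr are high in the HSC fraction alone of the GFP-negative pair.

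Among regulators of the red cell programme the changes went both ways. Of 15 erythroid transcription factors, 4 rose and 3 fell, with a median difference of 0.24, and with arrays centred on their medians 8 rose and 3 fell. Klf1, the KLF1 factor, measured 12.15, 12.16 and 11.998 in the MEP arrays and 9.36, 10.25 and 9.48 in the HSC arrays. The groups did not overlap, and the difference was 2.41 ± 0.36 (n = 3 per group, adjusted p = 3.83e-05), or 5.30-fold. Here and below the value after ± is the SE from the fit of all 8 groups. Gata1 measured 12.22, 12.13 and 12.01 in MEP and 10.05, 11.20 and 10.35 in HSC, a difference of 1.59 ± 0.45 (adjusted p = 0.0122). The spread lay on the HSC side, where replicate 2 was the highest, and without HSC replicate 1 the Gata1 difference was 1.35 with an adjusted p of 0.063. The repressor Gfi1b rose by 1.07 ± 0.28 and Klf3, another Krüppel-like factor, by 1.56 ± 0.21.

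The factors that fell were Sox6, Nfe2 and Cbfa2t3. Sox6, a factor of globin switching and red cell maturation, was tightly placed at 9.24, 9.23 and 9.27 in MEP and stood at 11.46, 10.96 and 11.48 in HSC, so that it fell by 2.05 on the log2 scale (adjusted p = 1.9e-06). Its MEP level was nonetheless above the 6.94 to 7.51 of LSK GFPhi. Nfe2, needed for platelet release, fell by 1.19 (adjusted p = 9.46e-07). The ETO2 corepressor gene Cbfa2t3 fell by 1.12 (adjusted p = 0.0197), a call that was lost in 4 of the 6 fits that left out 1 array. Gata2, the GATA factor of early progenitors, measured 11.38, 11.19 and 11.37 in MEP and 12.07, 12.02 and 11.99 in HSC and fell by 0.72 ± 0.18 (adjusted p = 0.00483). Tal1 and Zfpm1, picked for mention after their values were seen, differed by 0.24 and 0.03 and did not pass.

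The erythropoietin receptor gene rose while several genes of its pathway fell. Epor, the receptor, measured 10.37, 10.79 and 10.85 in MEP and 8.46, 8.81 and 8.32 in HSC. It rose by 2.14 ± 0.15 (adjusted p = 1.29e-09), and the HSC arrays lay only just above the 7.76 to 7.90 of LSK GFPhi. Of the 12 genes of the receptor's pathway Epor alone rose and 5 fell, namely the feedback inhibitors Socs3, Cish and Sh2b3, the kinase Pim1 and the survival gene Bcl2l1. With centred arrays, and likewise under the replicate block, 2 rose. Socs3 measured 4.51, 4.98 and 4.69 in MEP and 7.53, 8.60 and 8.64 in HSC. It fell by 3.53 ± 0.35 (adjusted p = 2.03e-07), but the 3 probe sets of the gene ranged from -3.53 to -0.30, and without the probe sets of the _x_at and _s_at kinds the difference was -0.30 with an adjusted p of 0.381. Pim1 fell by 2.41 ± 0.26 and Cish by 1.24 ± 0.22. Kit, the stem cell factor receptor on which both gates rest, measured 12.59, 12.31 and 12.90 in MEP and 12.74, 11.77 and 12.25 in HSC, with overlapping arrays and a difference of 0.34 ± 0.38 (adjusted p = 0.604).

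Genes of the red cell membrane rose in most cases. Of 18 genes of membrane, globin and carbonic anhydrase, 12 rose and 1 fell, with a median of 1.33. The mean over this list was 9.71 to 9.82 in the MEP arrays, 8.27 to 8.64 in the HSC arrays, 7.12 to 7.32 in LSK GFPhi and 6.94 to 7.14 in LK GFPhi. Rhd measured 11.64, 11.27 and 11.76 in MEP and 8.10, 8.72 and 8.46 in HSC and rose by 3.13 ± 0.23 (adjusted p = 2.46e-09), or 8.72-fold. This was the largest rise of the list. The water channel Aqp1 measured 11.83, 11.86 and 11.92 against 9.10, 9.41 and 8.92 and rose by 2.73 ± 0.36 (adjusted p = 7.19e-06). Kel rose by 2.65 ± 0.23, from 8.24, 8.69 and 8.14 to 10.78, 11.15 and 11.10. The Rh-associated ammonium channel Rhag, at 11.44, 11.84 and 11.69 in MEP, varied more in HSC, with 8.63, 10.25 and 9.79, and rose by 2.10 ± 0.42 (adjusted p = 0.000731). Tspo2, a membrane protein of erythroid cells, rose by 2.23 ± 0.16, and Ermap, the erythroblast membrane-associated protein of the Scianna blood group, by 2.16 ± 0.36.

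Some members of the list did not pass. The globin gene Hba-a1 measured 5.47, 5.28 and 5.42 in MEP and 5.33, 5.52 and 5.49 in HSC. The arrays overlapped, and the difference was -0.06 ± 0.11 (adjusted p = 0.809) and turned to 0.11 with centred arrays. The band 3 anion exchanger gene Slc4a1, chosen after its values were seen, differed by 0.22 ± 0.11 (adjusted p = 0.172), and Hbb-b1 was not analysed here. The member that fell, the tropomodulin gene Tmod1, was picked for mention after its values were seen, with a difference of -0.59 (adjusted p = 0.027). Carbonic anhydrase 1 (Car1) measured 13.75, 13.38 and 13.73 in MEP against 11.65, 11.91 and 11.37 in HSC and rose by 1.97 ± 0.48 (adjusted p = 0.0037). Car2 was already at 13.11, 12.18 and 12.78 in HSC and at 13.51, 13.17 and 13.56 in MEP. Its difference of 0.72 had an adjusted p of 0.141, and passed with the replicate number as a block (adjusted p = 0.0143) and with centred arrays (0.0487).

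Heme synthesis and iron handling rose with the membrane genes. Of 13 genes of heme synthesis and transport, 9 rose and none fell (median 1.04), and of 16 iron-handling genes 9 rose and none fell (median 0.84). Cpox measured 10.73, 11.65 and 11.62 in MEP and 8.94, 8.91 and 9.27 in HSC and rose by 2.29 ± 0.28 (adjusted p = 3.08e-06). Tmem14c, a porphyrin importer of mitochondria, rose by 2.18 ± 0.33, the porphyrin transporter Abcb6 by 1.86 ± 0.22 and the glycine importer Slc25a38 by 1.63 ± 0.18. Ferrochelatase (Fech), which inserts the iron, rose by 1.11 ± 0.11, although its 4 probe sets ranged from -0.73 to 2.14. The erythroid rate-limiting enzyme gene Alas2 did not pass. It measured 5.17, 5.48 and 5.56 in MEP and 5.08, 5.19 and 4.89 in HSC, with overlapping arrays and a difference of 0.35 (adjusted p = 0.12). It did pass under the replicate block (adjusted p = 0.0118), with array weights (0.0265) and with centred arrays (0.00884).

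Among iron genes the transferrin receptor Tfrc measured 12.69, 12.50 and 12.85 in MEP and 10.31, 10.32 and 10.75 in HSC. It rose by 2.22 ± 0.22 (adjusted p = 2.11e-07), and the LK GFPhi arrays lay between, at 11.09 to 11.79. The iron exporter ferroportin (Slc40a1) measured 10.59, 11.18 and 11.55 in MEP and 8.07, 8.70 and 8.56 in HSC and rose by 2.66 ± 0.35 (adjusted p = 7.18e-06), so genes of uptake and of export rose in the same fraction. The biliverdin reductase gene Blvrb, of heme breakdown, rose by 2.31 ± 0.29, the divalent metal transporter Slc11a2 by 1.90 ± 0.19 and the iron-sulfur assembly gene Isca1 by 1.45 ± 0.38. Neither the mitochondrial iron importer Slc25a37 (-0.19) nor the second transferrin receptor Tfr2 (0.28) passed; both were picked after their values were seen.

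Most of the 15 largest rises of the whole table lay outside these lists. Tlcd4, of the TLC domain family, measured 9.30, 9.55 and 9.93 in MEP and 5.63, 5.81 and 5.53 in HSC, a difference of 3.93 ± 0.42 (adjusted p = 4.95e-07), or 2.35 with the mean of its probe sets. Nxpe2, of the neurexophilin and PC-esterase domain family, rose by 3.79 ± 0.25 and the long-chain acyl-CoA synthetase Acsl6 by 3.42 ± 0.25. In all 3 genes other probe sets of the gene moved less, down to 0.40, 0.29 and 0.21. Paqr9, a progestin and adipoQ receptor family member, rose by 3.32 ± 0.32, the endocytosis adaptor gene Reps2 by 3.19 ± 0.18, the aldehyde dehydrogenase gene Aldh1a7 by 3.15 ± 0.20 and the lipid phosphatase gene Plpp1 by 3.11 ± 0.36. With the mean of a gene's probe sets the difference was 3.35 for Paqr9, 1.71 for Reps2, 3.15 for Aldh1a7 and 2.02 for Plpp1. The glutamine and asparagine transporter gene Slc38a5 measured 12.13, 12.17 and 11.90 in MEP and 8.21, 9.71 and 9.12 in HSC and rose by 3.06 ± 0.30. Cdr2, Garem1, Cldn13, Epdr1, Mns1 and Asb17 completed the 15 largest, with rises of 2.80 to 2.96 (1.49 to 2.96 with the mean of a gene's probe sets). They were named from called genes whose MEP arrays all lay above the HSC arrays, which 21.6% of all genes did.

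Many megakaryocyte and platelet genes went the other way. Of 23 such genes, 1 rose, 11 fell and 11 were not called, with a median of -0.89. With centred arrays 4 rose and 10 fell. Those not called included Ppbp (-0.13), Gp1bb (-0.14), Treml1 (-0.32), Gp6 (0.07) and Tubb1 (0.22), picked after their values were seen. The mean over the list was 7.81 to 8.18 in the MEP arrays, 8.73 to 9.18 in the HSC arrays and 7.38 to 7.91 over the 2 GFPhi fractions. Itga2b, the platelet fibrinogen receptor subunit CD41, measured 9.36, 9.55 and 9.57 in MEP and 10.76, 11.26 and 10.79 in HSC and fell by 1.44 ± 0.24 (adjusted p = 0.000134). Its MEP arrays still lay above those of LSK GFPhi (8.31 to 8.52) and LK GFPhi (7.93 to 8.38). The megakaryocyte factor gene Fli1 measured 7.56, 8.65 and 7.10 in MEP and 9.55, 11.07 and 10.74 in HSC. It fell by 2.69 ± 0.56 (adjusted p = 0.00103), to below the LSK GFPhi arrays (8.90 to 10.10). Nbeal2, of the grey platelet locus, fell by 3.04 ± 0.32, the platelet adhesion protein gene Mmrn1 by 2.71 ± 0.29, P-selectin (Selp) by 1.84 ± 0.28 and the factor gene Runx1 by 1.46 ± 0.31. With the mean of a gene's probe sets the difference was -1.56 for Nbeal2, -1.47 for Mmrn1, -2.28 for Selp and -0.74 for Runx1.

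Pf4 and Vwf, both strongly tied to platelets, were lower in MEP without passing. Pf4 measured 10.72, 11.18 and 11.10 in MEP, below the HSC values given above, and differed by -0.85 ± 0.54 (adjusted p = 0.298). It passed when the 2 compared groups were fitted alone, at an adjusted p of 0.0415. Vwf, the von Willebrand factor gene, measured 7.23, 8.41 and 8.14 in MEP and 8.46, 10.23 and 8.33 in HSC. The difference of -1.08 had an adjusted p of 0.146 in the fit without a block and 0.0268 with the replicate number as a block. Gp5, a subunit of the platelet von Willebrand receptor, was the exception that rose, with 9.04, 8.91 and 9.31 against 8.65, 8.57 and 8.06 (0.66 ± 0.23, adjusted p = 0.035). In the HSC fraction replicate 2 was the highest array for Vwf, Selp and Pf4 alike.

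**Figure D3:**
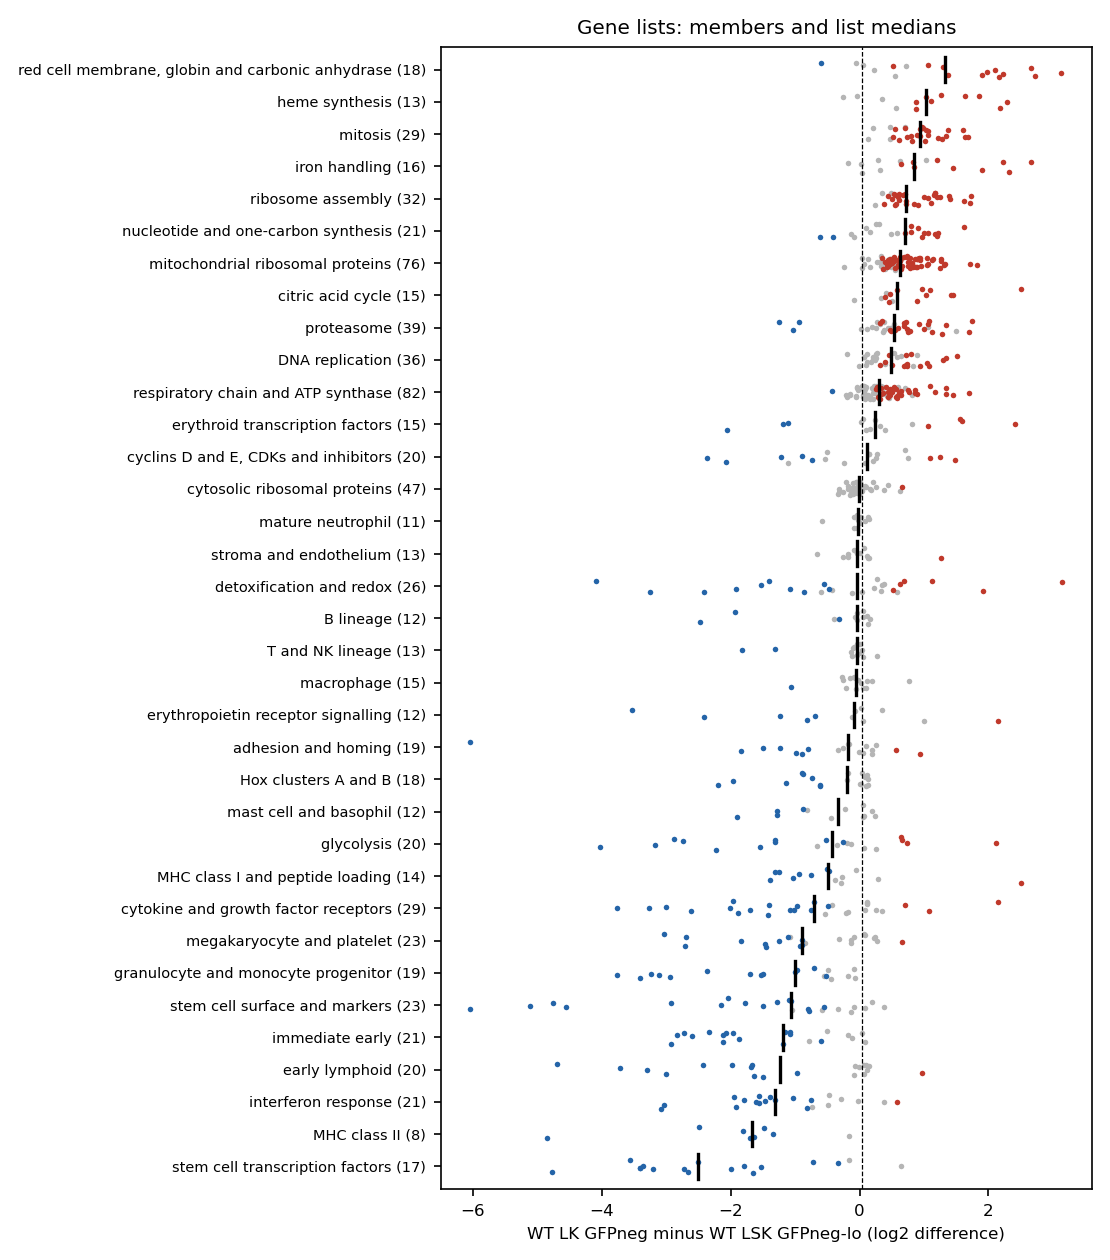
Log2 difference, LK GFPneg minus LSK GFPneg-lo, of each member of the gene lists named at the left (number measured in parentheses), with called members in red (higher) or blue (lower), others in grey, and a black bar at each list's median. The dashed line is the median over all genes, 0.03. Red cell, heme and mitosis lists sit to its right, and stem cell, MHC class II and interferon lists to its left.

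Transcription factors of stem cells fell most as a group. Of 17, none rose and 15 fell, with a median of -2.51 against 0.03 over all genes, and in those 15 all MEP arrays lay below all HSC arrays, as they did in 18.8% of all genes. Mecom, the EVI1 factor of stem cell maintenance, measured 6.42, 6.45 and 6.41 in MEP and 11.26, 11.10 and 11.23 in HSC, a fall of 4.77 ± 0.25 (27.3-fold, adjusted p = 2.43e-11). The arrays of each group lay close together, although the gene's 3 probe sets ranged from -4.77 to 0.05, and LK GFPhi stood at 6.43 to 7.73. Hlf measured 8.12, 7.49 and 8.23 against 11.64, 11.30 and 11.59 and fell by 3.57 ± 0.22. Meis1, the cofactor of HOX proteins, measured 8.83, 9.04 and 9.16 against 12.35, 12.003 and 12.27 and fell by 3.20 ± 0.30. The zinc-finger repressor gene Gfi1 fell by 3.41 ± 0.30, the zinc-finger factor gene Prdm16 fell by 3.40 ± 0.31 and the ETS factor gene Erg by 3.36 ± 0.26. With the mean of a gene's probe sets the difference was -1.64 for Mecom, -4.21 for Hlf and -2.77 for Meis1. By that measure it was -3.41 for Gfi1, -1.14 for Prdm16 and -1.65 for Erg. Bmi1, picked after its values were seen, had a difference of 0.65 that did not pass.

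Of 18 genes of the Hox A and B clusters, 8 fell and none rose. Hoxa9, the most studied of them in progenitors, measured 9.93, 9.99 and 10.36 in MEP and 12.34, 12.19 and 12.36 in HSC. It fell by 2.20 ± 0.21 (adjusted p = 1.22e-07), while the LSK GFPhi arrays, at 12.22 to 12.47, were at the level of the HSC arrays. Hoxa10 fell by 1.96 ± 0.19 and Hoxb5 by 1.15 ± 0.17. After a filter on the dimmest 40% of probe sets, 5 genes of the clusters fell, and with centred arrays 8 fell and 3 rose.

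Stem cell surface genes fell too. Of 23 stem cell surface genes and markers, none rose and 15 fell (median -1.07). Alcam, the adhesion molecule CD166, measured 5.09, 5.71 and 5.20 in MEP and 10.84, 11.63 and 11.65 in HSC, a difference of -6.04 ± 0.37 (adjusted p = 2.05e-10), or -3.51 with the mean of its probe sets. All 5 probe sets of Alcam were lower in MEP, by 0.84 or more. Procr measured 6.36, 6.48 and 6.36 against 11.93, 11.16 and 11.43 and fell by 5.11 ± 0.27 (adjusted p = 2.69e-11). Cd34, the sialomucin used in sorting, fell by 4.76 ± 0.40, from 12.31, 10.92 and 11.76 in HSC to 7.05, 6.17 and 7.49 in MEP, while both GFPhi fractions were at 11.90 to 12.76. Fgd5, a guanine exchange factor used as a stem cell reporter locus, fell by 4.55 ± 0.26 and the angiopoietin receptor relative Tie1 by 2.92 ± 0.25. Slamf1 (CD150), which also marks part of the MEP pool, measured 8.79, 8.83 and 8.78 in MEP and 9.38, 10.09 and 9.27 in HSC and fell by 0.78 ± 0.24. Cd48 overlapped between the fractions, at 9.42, 8.499 and 9.77 in MEP and 9.54, 8.44 and 9.56 in HSC.

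The largest falls outside the stem cell lists were of mixed kinds. Itih5, of the inter-alpha-trypsin inhibitor family, measured 6.51, 6.84 and 6.98 in MEP and 12.10, 12.16 and 11.61 in HSC and fell by 5.18 ± 0.19 (adjusted p = 2.24e-13). The DNA-sensing adaptor gene Sting1 fell by 5.11 ± 0.27, the gluconeogenesis gene Fbp1 by 5.01 ± 0.25, the imprinted gene Ndn by 4.93 ± 0.30 and Mamdc2 by 4.93 ± 0.30. Bex6 measured 4.43, 4.28 and 4.58 against 9.30, 9.01 and 9.40, a fall of 4.81 ± 0.13 (adjusted p = 8.48e-15). The adhesion receptor gene Adgrl4, the lymphotoxin gene Ltb, the lipoprotein receptor gene Vldlr and the GTPase gene Gimap8 fell by 4.63 to 4.71. With the mean of a gene's probe sets the difference was -2.26 for Vldlr, -2.76 for Ndn, -3.40 for Sting1 and -4.38 for Itih5. For the other genes of this paragraph it was -5.01 to -4.55.

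Cytokine receptors other than Epor were mostly lower in MEP. Of 29 receptors, 3 rose and 16 fell (median -0.71). Csf2rb, the beta chain shared by the receptors for IL-3, IL-5 and GM-CSF, measured 6.41, 5.67 and 6.70 in MEP and between 9.83 and 10.25 in the 3 HSC arrays and fell by 3.77 ± 0.25 (adjusted p = 9.33e-10). The activin receptor gene Acvr1b fell by 3.27 ± 0.17. The FLT3 ligand receptor gene Flt3 measured 7.43, 7.65 and 7.54 in MEP and 10.62, 10.05 and 10.96 in HSC and fell by 3.002 ± 0.29, with 12.18 to 12.31 in LSK GFPhi. With the mean of a gene's probe sets the difference was -1.94 for Csf2rb, -1.59 for Acvr1b and -3.002 for Flt3. Besides Epor, the interferon gamma receptor gene Ifngr1 rose by 1.08 ± 0.16 and the betaglycan gene Tgfbr3 by 0.71 ± 0.15, both chosen after their values were seen. With centred arrays 6 receptors rose and 13 fell.

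Genes of the other blood lineages fell in the MEP fraction where they passed, apart from Tcf3. Of 19 granulocyte and monocyte progenitor genes, none rose and 13 fell (median -1.01), and of 20 early lymphoid genes 1 rose and 11 fell (median -1.23). Mpo, myeloperoxidase, measured 9.47, 8.13 and 9.83 in MEP and 12.30, 12.03 and 12.44 in HSC and fell by 3.11 ± 0.31 (adjusted p = 2.63e-07), with 13.82 to 14.01 in LK GFPhi. The myeloid factor gene Cebpa measured 7.20, 7.21 and 7.22 against 8.79, 8.59 and 8.77 and fell by 1.505 ± 0.17, and Spi1 (PU.1) fell by 1.52 ± 0.24. Prtn3, a granule protease, fell by 3.24 ± 0.27. Elane (-0.18) and Fcgr3 (-0.08) did not pass. The chromatin organiser gene Satb1 fell by 3.296 ± 0.31, the TNF receptor family gene Cd27 by 3.72 ± 0.25 and the terminal transferase gene Dntt by 1.64 ± 0.48, from 8.70, 8.65 and 8.88 to 7.15, 7.18 and 6.98. Dntt stood at 13.15 to 13.44 in LSK GFPhi, above both fractions. The member that rose, the E2A factor gene Tcf3, was chosen after its values were seen, with a rise of 0.97 ± 0.17.

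In each list for mature cells that a sort can carry over, most genes were not called. Over all genes 27.1% were called, 13.0% higher in MEP and 14.1% lower. The share that fell was above 14.1% in the B-lineage and the mast cell and basophil lists, and close to it in the T and NK list. The limma test called none of 11 mature neutrophil genes and none of 6 eosinophil genes. It called 3 of 12 B-lineage genes (Cd79b, Cd72 and Fcer2a, all lower), 2 of 13 T and NK genes (Nkg7 and Gata3, lower), 1 of 15 macrophage genes (Cd68, lower) and 1 of 8 plasma cell genes (Xbp1, lower). Of 13 stroma and endothelium genes 1 was called, Plvap, higher by 1.27 ± 0.44. The calls of Fcer2a and Plvap were lost in 3 and 4 of the 6 fits that left out 1 array, and that of Xbp1 without the _x_at and _s_at kinds of probe set (-0.30, adjusted p = 0.596) and when the probe sets of a gene were averaged (-0.37, adjusted p = 0.0635). None of the 4 sex-linked genes passed. The mean over these 4 was 9.43, 8.87 and 9.53 in MEP replicates 1 to 3. In HSC it was 9.49, 8.93 and 9.56, so replicate 2 was the lowest in both fractions. Of 12 mast cell and basophil genes 4 fell (Fcer1a, Fcer1g, Mitf and Slc18a2). The neutrophil list averaged 5.73 to 5.76 in MEP and 5.73 to 5.84 in HSC, and the macrophage list 6.15 to 6.24 and 6.22 to 6.30. Their part in the other results was not tested.

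Cell division genes were higher in MEP. Of 29 mitosis genes 24 rose and none fell (median 0.93), and of 36 DNA replication genes 16 rose and none fell (median 0.49). The replication count was 25 under the replicate block and 28 with centred arrays. The survivin gene Birc5 measured 10.65, 10.41 and 10.78 in MEP and 8.78, 8.61 and 9.42 in HSC and rose by 1.68 ± 0.35 (adjusted p = 0.00112). The mitotic kinase gene Aurka rose by 1.63 ± 0.34, and Cdc6, which loads the replicative helicase, by 1.51 ± 0.21. Subunits of the helicase, picked after their values were seen, did not pass. Mcm2 measured 11.65, 11.78 and 11.53 in MEP and 11.41, 11.70 and 11.53 in HSC, and Mcm5 differed by 0.10, although a dimmer probe set of Mcm2 differed by 0.69 and one of Mcm5 by 1.07. The proliferation marker Mki67 measured 12.89, 12.70 and 13.11 in MEP and 12.28, 11.86 and 12.35 in HSC and rose by 0.74 ± 0.26 (adjusted p = 0.0402). That call was lost in 4 of the 6 fits that left out 1 array, with adjusted p-values of 0.061 to 0.173.

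Regulators of the start of the cycle were called in both directions, but the share that rose was near that of all genes. Over all genes 13.0% rose and 14.1% fell. Among 20 D and E cyclins, kinases and inhibitors, 3 rose (Ccne1, Ccne2 and Rb1) and 5 fell (Ccnd2, Cdkn1a, Cdkn1c, Cdkn2d and Btg2), with centred arrays 7 rose and 4 fell, and under the replicate block 5 rose. The cyclin E gene Ccne1 measured 11.95, 11.76 and 11.55 in MEP and 9.61, 10.69 and 10.53 in HSC and rose by 1.48 ± 0.31 (adjusted p = 0.00121). The D cyclin Ccnd2 fell by 1.22 ± 0.14, from 11.88, 12.13 and 11.89 to 10.72, 10.71 and 10.82. The inhibitor p57 (Cdkn1c), which is known to keep stem cells quiescent, measured 5.80, 5.68 and 5.79 in MEP and 8.33, 8.16 and 7.89 in HSC. It fell by 2.37 ± 0.21 (adjusted p = 5.23e-08), and LSK GFPhi stood near the MEP level, at 6.03 to 6.10. Mycn fell by 2.72 ± 0.36 (-0.85 with the mean of its probe sets), from 10.96, 10.83 and 10.54 to 8.01, 7.98 and 8.18. Its relative Myc was at 10.86, 10.76 and 10.93 in MEP and at 10.47, 10.40 and 10.43 in HSC, arrays that did not overlap, and the difference of 0.42 had an adjusted p of 0.126. It passed under the replicate block (adjusted p = 0.0191), with the compared groups alone (0.011), with array weights (0.0407) and with centred arrays (0.0297). Ccnd1 differed by -1.11 with an adjusted p of 0.122, of 0.000132 when the compared groups were fitted alone, and of 0.0411 with the mean of its probe sets.

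Growth machinery rose broadly, but not every part of it. Of 32 ribosome assembly genes 29 rose and none fell (median 0.72), led by the nucleolar proteins Nop58 (1.72 ± 0.36) and Nolc1 (1.72 ± 0.21). Nolc1 measured 10.81, 11.01 and 10.99 in MEP and 9.001, 9.28 and 9.38 in HSC. Of 47 genes of the cytosolic ribosome's own proteins, 1 rose (Rps27l) and none fell, with a median of -0.01 and list means of 12.01 to 12.08 in MEP and 11.96 to 12.12 in HSC. With centred arrays 10 of these rose, and under the replicate block 4 rose and 2 fell. Among 21 genes of nucleotide and one-carbon synthesis 11 rose and 2 fell (Impdh1 and Ctps2).

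Mitochondrial genes rose and several glycolytic genes fell. Of 76 mitochondrial ribosomal proteins 54 rose and none fell (median 0.62), and of 15 citric acid cycle genes 11 rose and none fell (median 0.59; 7 rose without MEP replicate 1 or without MEP replicate 3). Of 82 respiratory chain and ATP synthase genes 36 rose and 1, Cox7a2l, fell (median 0.30; 23 rose without HSC replicate 1). Among the ribosomal proteins Mrpl50 rose by 1.82 ± 0.28, and the succinate dehydrogenase subunit gene Sdhd measured 11.71, 11.35 and 11.77 in MEP against 10.34, 9.33 and 10.06 in HSC (1.70 ± 0.41, adjusted p = 0.00345). Dlat, of the pyruvate dehydrogenase complex, rose by 1.42 ± 0.15.

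Of 20 glycolysis genes 4 rose and 10 fell (median -0.44), and Gapdh, Eno1 and Gpi1 were not analysed here. Pyruvate kinase (Pkm) measured 6.27, 6.24 and 7.16 in MEP and 10.75, 10.25 and 10.75 in HSC, and fell by 4.03 ± 0.22 (16.3-fold, adjusted p = 5.39e-11), while both GFPhi fractions were at 10.68 to 11.22. The glucose transporter gene Slc2a1 fell by 3.18 ± 0.22, from 8.56, 8.68 and 8.36 to 5.22, 5.56 and 5.26. The hexokinase gene Hk3 fell by 2.88 ± 0.16 and the aldolase gene Aldoc by 2.73 ± 0.23. With the mean of a gene's probe sets the difference was -4.03 for Pkm, -2.02 for Slc2a1, -1.86 for Hk3 and -1.71 for Aldoc. Aldoa, Tpi1 and Pfkl, picked after their values were seen, did not pass. The monocarboxylate transporter gene Slc16a1 moved the other way, from 9.97, 10.13 and 9.97 to 12.23, 11.92 and 12.26 (2.11 ± 0.31, adjusted p = 2.73e-05). The lactate dehydrogenase gene Ldha rose by 0.67, Hk1 by 0.64 and the phosphofructokinase gene Pfkm by 0.74, all 3 chosen after their values were seen.

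Protein breakdown genes split by the kind of proteasome. Of 39 proteasome genes 21 rose and 3 fell (median 0.54). The 3 that fell were Psmb8, Psmb9 and Psmb10, the subunits of the immunoproteasome, named after their values were seen. Psmb8 measured 10.53, 10.35 and 10.61 in MEP and 11.85, 11.69 and 11.68 in HSC and fell by 1.24 (adjusted p = 2.38e-05), whereas the lid subunit gene Psmd7 rose by 1.74 ± 0.39.

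Antigen presentation, interferon-response and immediate early genes were lower in MEP. Of 8 MHC class II genes 7 fell and none rose (median -1.67), of 14 genes of MHC class I and peptide loading 8 fell and 1 (Pdia3) rose (median -0.49), and of 21 interferon-response genes 14 fell and 1 (Oasl1) rose (median -1.31). H2-Aa measured 6.31, 6.30 and 5.91 in MEP and 11.38, 11.04 and 10.66 in HSC and fell by 4.85 ± 0.47 (28.9-fold, adjusted p = 1.71e-07). All 4 of its probe sets were lower in MEP, and it was at 10.32 to 11.10 over the GFPhi fractions. The call of Pdia3 was lost in 4 of the 6 fits that left out 1 array, with adjusted p-values of 0.0531 to 0.119. The class II transactivator gene Ciita, picked after its values were seen, differed by -0.17 and did not pass. The antiviral gene Oasl2 measured 6.03, 6.09 and 6.67 in MEP and 9.32, 8.95 and 9.75 in HSC and fell by 3.08 ± 0.37, and Iigp1, an interferon-inducible GTPase, fell by 3.04 ± 0.41.

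Of 21 immediate early genes 15 fell and none rose (median -1.20). Fos measured 10.91, 10.73 and 10.75 in MEP and 13.37, 12.90 and 13.12 in HSC. The groups did not overlap, and the fall of 2.33 ± 0.72 (adjusted p = 0.0204) lost its call in 3 of the 6 fits that left out 1 array. The mRNA decay factor gene Zfp36 fell by 2.93 ± 0.38, the phosphatase gene Dusp1 by 2.84 ± 0.55 and Klf6 by 2.72 ± 0.30.

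Survival, efflux and chromatin genes gave smaller groups of calls. Of 14 genes of the Bcl2 family none rose and 5 fell (Bcl2, Bcl2l1, Mcl1, Bmf and Bnip3), while 3 rose and 4 fell with centred arrays and 2 rose under the replicate block. Bcl2 measured 7.47, 7.69 and 7.95 in MEP and 9.59, 10.07 and 9.85 in HSC and fell by 2.13 ± 0.30 (adjusted p = 1.48e-05). The count of 5 was 3 without MEP replicate 1, without MEP replicate 3, without HSC replicate 2 and without HSC replicate 3. Among 26 detoxification and redox genes 6 rose and 10 fell (10 and 9 with centred arrays), with Abcb1b, a multidrug transporter of the MDR1 kind, down by 3.25 ± 0.13 and the glutathione transferase Mgst1 down by 4.09 ± 0.33. With the mean of a gene's probe sets the difference was -1.56 for Abcb1b and -1.97 for Mgst1. Of 9 DNA methylation genes 5 fell (Dnmt3a, Dnmt3b, Tet1, Tet2 and Idh1) and 1 rose (Uhrf1), and the methyltransferase gene Dnmt3b went from 12.02, 12.06 and 11.97 in HSC to 10.59, 10.76 and 10.27 in MEP (-1.47 ± 0.15, adjusted p = 2.51e-07). Of 21 Polycomb genes 4 rose (Ezh2, Eed, Suz12 and Pcgf6) and 5 fell (Ezh1, Cbx7, Cbx8, Phc1 and Pcgf5), while 7 rose and 3 fell with centred arrays. Of the catalytic subunits Ezh2 rose by 0.94 ± 0.24 and Ezh1 fell by 1.07, a call lost when the probe sets of a gene were averaged (-0.26, adjusted p = 0.122). The calls of Bcl2l1, Bmf, Mcl1, Tet1, Tet2, Eed and Pcgf5 were each lost in at least 1 alternative, by leaving out 1 array in all but Mcl1 and Tet1.

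Ikzf1, the gene for Ikaros itself, measured 11.81, 11.73 and 11.99 in MEP and 11.36, 11.09 and 10.99 in HSC, and the GFPhi arrays lay at 11.41 to 11.73. The MEP and HSC arrays did not overlap. The difference of 0.69 ± 0.36 had an adjusted p of 0.184, and of 0.0073 with the replicate number as a block and 0.00528 with the compared groups alone. Its other probe set differed by 0.19. The related factor gene Ikzf2 (Helios) fell by 1.61 ± 0.20, from 12.01, 11.67 and 11.90 to 10.29, 10.33 and 10.13, and Ikzf5 rose by 0.61, a call lost in 3 of the 6 fits that left out 1 array.

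The same fractions from Ikaros-null mice show how far the difference between them is seen without Ikaros. They share no array with the wild-type pair, but the strain background differs too, so genotype and background cannot be told apart. In the null 4125 genes differed (22.7%), 1662 higher in MEP (9.14%) and 2463 lower (13.5%). Of genes that rose in wild type, 1220 also rose in the null (51.5% of the wild-type and 73.4% of the null genes), and of those that fell, 1974 also fell (76.9% and 80.2%). Genes that rose in wild type and fell in the null numbered 5 (Ankrd6, Atp8a1, Nefh, Slc7a7 and Ttc39a), and the 3 with the opposite pattern were Clic5, Ralb and Rrad. Klf1 rose by 2.31 in the null, Rhd by 2.48, Kel by 2.57 and Tfrc by 1.71, and Mecom fell by 4.46 and Procr by 5.20. Of the 29 mitosis genes 3 (Ccna2, Cenpa and Ttk) rose in the null (median 0.35 against 0.93 in wild type), but for none of the 29 did the difference between genotypes pass the test. The genotype difference did not pass for any member of the red cell, heme or iron lists either.

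The wild-type difference differed from the null difference for 147 genes (0.808%), 89 with the wild-type difference the higher (0.489%) and 58 the lower (0.319%). The number was 336 with the replicate number as a block, 441 with array weights and 92 without replicate 3 of the wild-type MEP fraction. Of the 23 megakaryocyte genes, 6 were among the 147, and in the list as a whole 15 fell in the null (median -1.77) against 11 in wild type. Itgb3, the partner of Itga2b, measured 7.80, 7.02 and 7.29 in null MEP and 11.20, 11.50 and 11.35 in null HSC, against 7.95, 8.60 and 8.74 and 9.40, 10.18 and 9.45 in wild type. The wild-type fall of 1.25 was smaller than the null fall of 3.98, by 2.73 (adjusted p = 9e-05), with null arrays above wild-type arrays in HSC and below them in MEP. Selp gave a difference between genotypes of 2.56 (adjusted p = 0.0017), Cd9 of 2.16 and the alpha6 integrin gene Itga6 of 1.59. Hoxa9 fell by 4.09 in the null and by 2.20 in wild type, a difference of 1.89 (adjusted p = 0.0019).

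**Figure D4:**
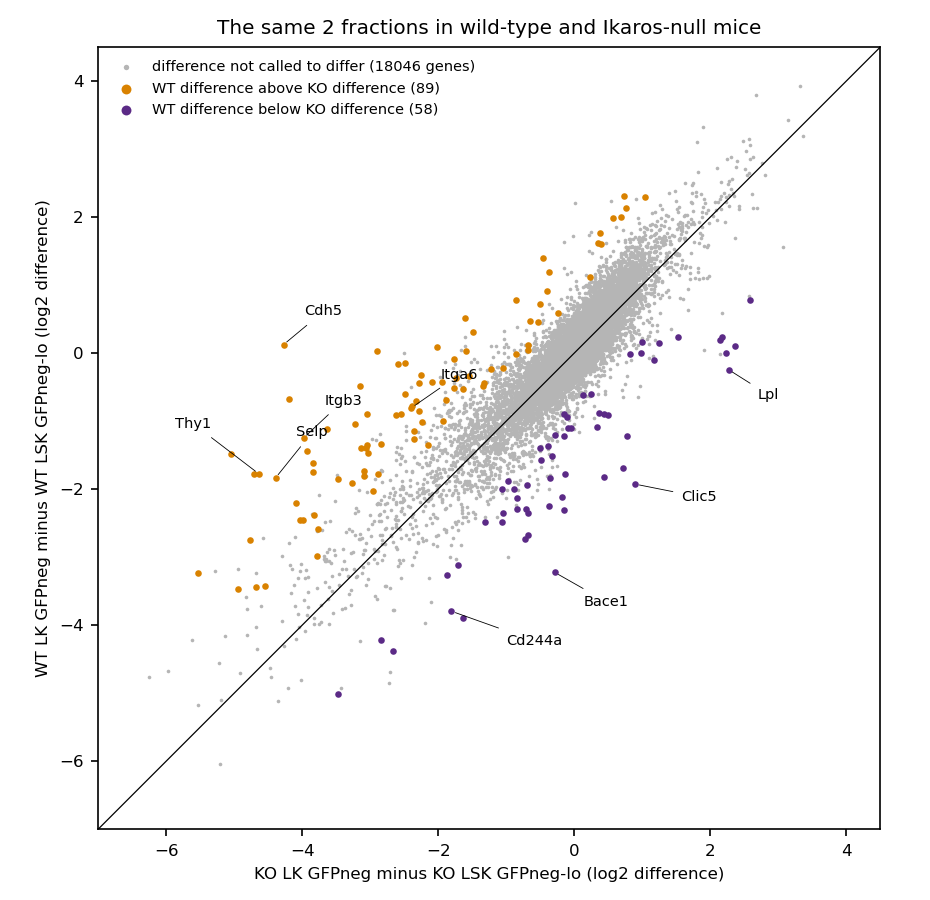
Log2 difference, LK GFPneg minus LSK GFPneg-lo, of each gene in Ikaros-null (horizontal) and wild-type (vertical) mice, with the 147 genes whose 2 differences were called unlike in orange (wild-type difference higher, 89 genes) or purple (lower, 58 genes). Most genes lie along the line of equality. Thy1, Itgb3 and Selp lie left of it because they fell more in the null, and Cdh5 because it was lower in MEP only in the null.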

How the data were processed

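RNA of sorted mouse bone marrow fractions was hybridised to 24 one-colour arrays, 3 for each of 8 groups. The authors deposited log2 RMA values (range 3.33 to 14.5), per the submitters' processing notes. The sources used here do not give a version of RMA, and its quantile step can hide a shift shared by most genes. Of 45101 probe sets, 64 controls were left out, 34945 had 1 symbol, 932 several and 9160 none, and each of 18193 genes was taken from its probe set of highest mean. Differences came from 1 limma fit (3.58.1, R 4.3.3) of 8 group means over 24 arrays, with Benjamini-Hochberg adjustment over all genes, two-sided, at 0.05. The fit was also run on simulated data with independent noise between arrays and few changed genes. The real arrays deviated together, as given below, so that run does not check these p-values. Groups followed the sample titles. The 3 arrays per group limit the precision. Same-numbered wild-type arrays deviated together from their group means (correlations of 0.480, 0.531 and 0.171), as did the null arrays (0.503, 0.601 and 0.183), so the replicate number was tried as a block. Differently numbered arrays gave -0.596 to 0.194 in wild type and -0.502 to 0.167 in the null. Wild-type MEP replicate 3 correlated more with HSC replicate 1 (0.194) than with HSC replicate 3 (0.171).

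The members and the gene lists were chosen with earlier results of these data known. Named genes were, from called genes with non-overlapping arrays (clone symbols passed over), the 15 that rose and the 15 that fell most, up to 6 called members with the largest difference of each list, a panel of markers, and the 8 largest genotype differences each way; any other gene named was chosen after its values were seen, including the small sets of members given in parentheses. Alternatives were the compared groups alone, the block, a filter on dim probe sets, other probe set rules, array weights, a trended fit, other scaling, and leaving out each array.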

Additional observations from a re-analysis of the deposited data

Results flagged for a closer look

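The wild-type difference between the MEP and HSC fractions differed from that of the Ikaros-null fractions, by limma's interaction test, for each of 16 genes named here, the 8 with the largest gap each way. Values are log2, wild-type difference minus null difference. Cdh5, the VE-cadherin gene of endothelium, gave 4.40 (adjusted p = 1.7e-11). It measured 9.85, 9.79 and 9.67 in the 3 null HSC arrays and 5.38, 5.80 and 5.30 in the null MEP arrays, against 4.82, 4.89 and 4.82 and 4.84, 4.998 and 5.05 in wild type, so only the null HSC arrays were high. Thy1, at 10.33, 10.09 and 10.22 in null HSC and 5.48, 5.69 and 5.55 in null MEP, fell in both genotypes and gave 2.87 (adjusted p = 0.00068). Itgb3 gave 2.73, Nrep 3.56, Tmem204 3.52, Lgalsl 2.93, Dlk1 2.93 and Myom1 2.68.

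In the other direction Bace1, the beta-secretase gene, fell by 3.23 in wild type and differed by -0.29 in the null, a gap of -2.94 (adjusted p = 0.00092). Clic5 fell by 1.93 in wild type and rose by 0.90 in the null, a gap of -2.82 (adjusted p = 1.6e-06). The lipoprotein lipase gene Lpl differed by -0.25 in wild type and rose by 2.27 in the null, a gap of -2.52. The gaps were -2.40 for Crim1, -2.27 for Clcf1, -2.26 for Eda2r, -2.26 for Ak4 and -2.24 for Plek2.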

How the results depend on the processing

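As reported, the wild-type comparison gave 4934 calls. With the replicate number as a block it gave 6566, 3361 higher in MEP and 3205 lower. With each array centred on its median 7683 genes were called, 5647 of them higher in MEP. With the mean of a gene's probe sets 4 genes rose and 59 fell at least 8-fold, against 9 and 119. The null comparison gave 9483 calls with centring and 6758 with array weights. The genotype difference was called for 336 genes with the replicate block and 441 with array weights. Leaving out 1 array in turn gave 1565 to 2079 genes higher in MEP, with 1565 without replicate 3 of the wild-type MEP fraction, and 92 to 139 genotype differences, with 92 without that same array. The named genes followed here were 251, the largest changes, top called list members and panel markers. Of these 238 were called, 201 kept the call in every alternative and 37 lost it in at least 1. Most were named because they were called with a large difference. Genes named only for a genotype difference or only after their values were seen were not followed. Apart from Alas2, Car2, Ikzf1, Myc and Vwf, which gained it, the block changed no call of these 251 genes. Of 94 counts of list members, 32 moved by over 1.5 times in some alternative. Signs turned for Bmf (0.12 with _x_at and _s_at probe sets left out), Cd48 (-0.058 with array weights, and -0.32 to 0.41 over the fits without 1 array), Dlk1 (-0.00286 with array weights, and -0.038 to 0.098 without 1 array), Fcgr3 (0.089 with centring, and -0.22 to 0.062 without 1 array), Hba-a1 (0.11 with centring), and Kit (-0.00438) and Rbpj (0.013) with the mean of a gene's probe sets. Apart from fewer arrays in the fits that left 1 out, the cause was not tested. The deposited values hold no background or detection measure, so how far dim signal limits a gene was not tested.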
